A study of Mus musculus with 4 samples.

Results

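Neutrophils are short-lived phagocytes made in the bone marrow and carried to tissues by the blood. They kill microbes with the contents of cytoplasmic granules and with reactive oxygen, and they release cytokines such as interleukin 1 beta. Their granule proteins are made in steps during maturation, so that the transcripts of Ltf, Ngp and Camp mark immature cells while those of Cxcr2, Il1b and Mmp9 mark mature ones. In the mammary gland they are known as the main leukocyte of infected milk and as early visitors of the gland that regresses after weaning.

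The neutrophils described here were chosen by measured values, the raw counts of unique molecular identifiers (UMIs, 1 per captured transcript) in each cell. Barcodes with at least 500 UMIs and 300 genes and at most 10% mitochondrial UMIs were taken as cells. A neutrophil had to hold at least 10 UMIs of S100a8 and S100a9 together and at least 1 UMI of Csf3r, Retnlg or Cxcr2. It had to hold no UMI of the T cell genes Cd3e, Cd3d and Cd3g, none of the B cell genes Cd79a and Ms4a1, and at most 1 UMI of the macrophage genes C1qa, C1qb and C1qc. In all, 516 of 42781 cells met the rule (1.21%, exact binomial 95% interval 1.10 to 1.31). The library DR_MG_2021 gave 279 of 21604 cells (1.29%, 1.15 to 1.45) and DR_MG_2022 gave 237 of 21177 (1.12%, 0.982 to 1.27). Intervals here and below cover counting error only.

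CD45+ leukocytes of mouse mammary glands were pooled in 2 droplet libraries, named DR_MG_2021 and DR_MG_2022 by the submitters. Before pooling, each sample's cells were marked with a hash tag, an antibody that carries a short DNA barcode. The tag sheet of DR_MG_2021 names Nulliparous (before any pregnancy), Gestation and Lactation samples. That of DR_MG_2022 names Gestation, Lactation, Involution (the gland after weaning), Regression, Balb/c (a mouse strain) and GF. Both sheets also name tag HT2 Germ-free. However, the title of DR_MG_2021 lists involution and no germ-free sample, and the DR_MG_2022 sheet has GF on tag HT12. HT2 was therefore kept out of the gene comparisons between samples unless named, but its cells are in the values of a whole library. The sources used here do not say how many animals each tag holds, their age, the strain of samples other than Balb/c, the day within a stage, or at what stage Balb/c and GF glands were taken. Every name has 1 sample a library, so differences between single samples have no replicate check and carry no p-value.

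The hash tag barcodes that placed the neutrophils discussed below are shown because the assignment of a neutrophil to a stage rests on the count of one of these 15-base oligonucleotides, read 5′ to 3′.
HT4 (Nulliparous): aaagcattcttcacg
HT5 (Gestation): ctttgtctttgtgag
HT6 (Lactation): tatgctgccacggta
HT8 (Involution): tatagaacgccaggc
HT9 (Regression): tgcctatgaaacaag
HT10 (Balb/c): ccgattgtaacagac
HT12 (GF): ctgcaaatataacgg

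S100a8 and S100a9 encode the subunits of calprotectin, the metal-binding protein that fills the neutrophil cytosol. As part of the rule they were high by choice, and their levels are given as a description. The median neutrophil held 77 UMIs of the pair in DR_MG_2021 and 127 in DR_MG_2022, which was 8.89% and 7.41% of all its UMIs. Between cells this share ran from 0.379% to 33.8% in DR_MG_2021 and from 0.273% to 38.2% in DR_MG_2022. Both genes lie in one cluster on chromosome 3, on opposite strands. Their promoters (250 bases before to 50 after the start of the gene) are printed because transcripts of this gene pair chose the cells. They come from RefSeq, build GRCm38.p6: S100a8 at chr3:90668821-90669120 on the plus strand and S100a9 at chr3:90695672-90695971 on the minus strand. Capitals mark matches, on either strand, to GAGGAAGT, a core of PU.1 sites (S100a8, 1 match), and to TTNNGCAA, a core of C/EBP sites (S100a9, 1 match). Neither window held both motifs.
S100a8: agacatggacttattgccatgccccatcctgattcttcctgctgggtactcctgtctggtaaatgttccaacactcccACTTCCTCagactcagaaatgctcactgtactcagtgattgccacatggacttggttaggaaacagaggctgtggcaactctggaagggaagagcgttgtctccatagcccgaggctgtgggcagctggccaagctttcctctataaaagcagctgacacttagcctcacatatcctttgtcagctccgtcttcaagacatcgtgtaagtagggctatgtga
S100a9: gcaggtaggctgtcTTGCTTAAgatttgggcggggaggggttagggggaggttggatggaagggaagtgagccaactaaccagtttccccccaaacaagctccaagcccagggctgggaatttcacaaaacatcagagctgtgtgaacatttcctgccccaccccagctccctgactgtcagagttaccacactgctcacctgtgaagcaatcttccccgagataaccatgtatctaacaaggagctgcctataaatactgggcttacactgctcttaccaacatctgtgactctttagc
Of the 30 genes made up of the 5 of the rule and the 25 leading markers below, 24 matched a RefSeq promoter, and TTNNGCAA was found in 7 of them (29.2%): S100a9, Retnlg, Nlrp12, Mmp8, Slc7a11, Ptgs2 and Clec4e. It was found in 12.2% of the 27025 genes searched, which had a promoter of this length and did not span every chromosome. GAGGAAGT was found in 2 of the 24 (8.3%), S100a8 and Mmp8, against 3.7% of all. A match is a run of letters and not a measured binding site.

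The neutrophils held little RNA. Their median was 837 UMIs and 392 genes in DR_MG_2021, against 1612 UMIs and 744 genes in the other cells, and 1606 UMIs and 765 genes in DR_MG_2022, against 3065.5 and 1447. In DR_MG_2021 the share of barcodes that met the marker rule was 6.19% (97 of 1568) from 500 to under 750 UMIs, 3.35% (105 of 3133) from there to under 1000, and 0.594% (51 of 8585) from 1000 to under 2000. In DR_MG_2022 it was highest from 1000 to under 2000 UMIs, at 4.34% (176 of 4054), and was 0.575% (3 of 522) from 500 to under 750. Asking for 1000 UMIs left 77 neutrophils in DR_MG_2021 and 228 in DR_MG_2022. A few cells were large: 11 neutrophils in DR_MG_2021 and 32 in DR_MG_2022 had 3000 UMIs or more and held 14.5% and 42.03% of all neutrophil UMIs. The doublet caller Scrublet marked 8 of these 11 and 11 of these 32, and in all 24 neutrophils (8.60%) in DR_MG_2021 and 12 (5.06%) in DR_MG_2022, against 7.86% and 6.87% of all cells. No neutrophil barcode was shared by the libraries.

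Over all neutrophils the levels of Il1b and Hdc matched the label. Il1b, the gene of interleukin 1 beta, was at 94.2 UMIs per 10000 UMIs of the neutrophils in DR_MG_2021 and at 114 in DR_MG_2022 (levels below are on this scale), against 1.02 and 1.33 in all other cells. It was seen in 98.6% and 97.0% of neutrophils, and in B cells, which should lack it, its level was 0.259 and 0.427. Hdc, which makes histamine, was at 16.5 and 18.8 against 0.0903 and 0.205. These comparisons follow from how the cells were chosen and carry no test. Free RNA was low: S100a8 and S100a9 together were at 4.23 in barcodes of 1 to 100 UMIs of DR_MG_2021, at 3.46 and 2.97 in T cells, and at 1045 and 923 in neutrophils. Of the cells with at least 10 UMIs of the S100 pair, 279 of 385 in DR_MG_2021 and 237 of 365 in DR_MG_2022 met the rest of the rule. A Cd3 UMI was held by 69 and 83 of them, a B cell UMI by 18 and 51, and more than 1 C1q UMI by 22 and 33. A cell can fail several clauses. Cells at the boundary of the S100 minimum were few. In DR_MG_2021 there were 9 cells with 5 to 9 UMIs of the S100 pair that met the rest of the rule and 8 with 10 to 14, and in DR_MG_2022 there were 7 and 8. Their summed level of 20 genes of mature neutrophils was 190 just outside and 139 just inside in DR_MG_2021, and 186 and 215 in DR_MG_2022, against 220 and 210 in cells with 15 or more. The last 2 values include large cells, and over all neutrophils below 3000 UMIs the level was higher, at 240 and 284. In neutrophils of 3000 UMIs or more, Scrublet calls included, it was 90.8 and 107. The 19 cytokines and chemokines summed to 40.4 and 68.8 in those large cells, against 203.5 and 291.3 below 3000 UMIs. In DR_MG_2021 the natural killer cell genes were at 107 just outside and 87.4 just inside, against 14.8 in cells with 15 or more, and their part in those few cells was not tested.

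**Figure D1:**
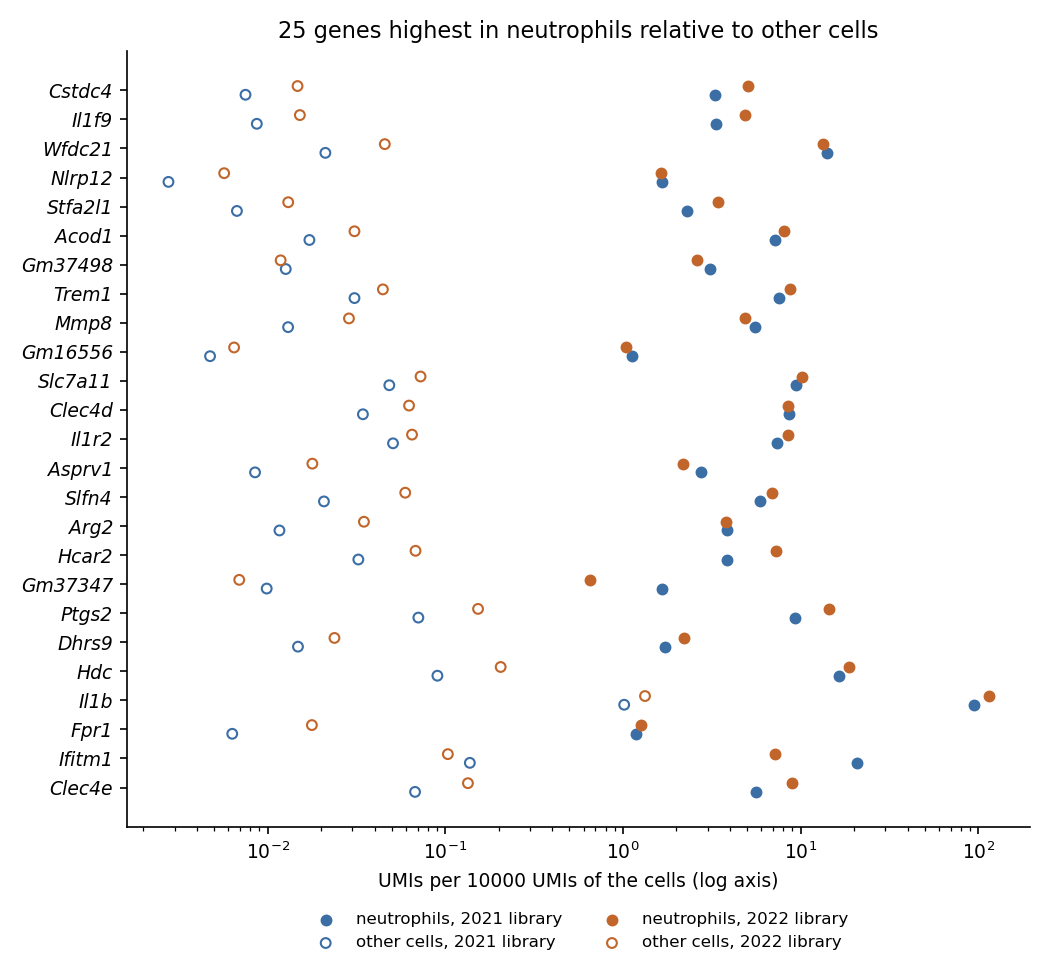
Levels of the 25 genes outside the rule with the largest ratio between neutrophils (filled points) and all other cells (open points), in UMIs per 10000 on a log axis, with DR_MG_2021 in blue and DR_MG_2022 in orange. In every row both filled points lie to the right of both open points, and Il1b lies farthest right.

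Of 1164 genes outside the rule that were seen in at least 10% of the neutrophils of both libraries, 465 (39.9%) were at least 2-fold and 101 at least 10-fold above the other cells in both. The 25 with the largest ratios fell into a few kinds. Inflammatory products were Il1b, Il1f9, Acod1 (which makes itaconate) and Ptgs2 (which makes prostaglandins, 9.28 and 14.4). Receptors were Trem1, Clec4d and Clec4e (which sense microbes and dying cells), Fpr1 (the receptor for bacterial formyl peptides), Il1r2 (a decoy for interleukin 1) and Hcar2. Protease inhibitors and enzymes included Wfdc21, Stfa2l1, Cstdc4, Mmp8, Asprv1, Arg2 and Hdc, and Slc7a11 is the cystine transporter. Nlrp12, Slfn4, Ifitm1, Dhrs9, Gm37498, Gm16556 and Gm37347 made up the rest.

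The counts of the gene lists stand beside that 39.9% and nothing is read from the difference, since the rule chose cells by this contrast. All 20 genes of mature neutrophils and all 12 of the list called granule genes of immature ones were at least 2-fold above other cells in both libraries. The list of 12 also holds genes of no granule protein, such as Cebpe and Ltb4r1. All 20 mature genes were seen in at least 10% of neutrophils of both libraries, but only 3 of the granule list were (Lcn2, Mmp8 and Anxa1). Among the genes seen that often, 18 of 21 receptors and adhesion genes, 15 of 17 transcription factors, 7 of 10 interferon-response genes and 6 of 8 cytokines and chemokines were at least 2-fold above other cells. Cxcl2, a chemokine that draws further neutrophils, was at 48.0 and 37.2 against 0.682 and 1.25. Il6 was at 0 in both libraries. Of the 6 genes of the NADPH oxidase, which makes superoxide, 5 were seen in at least 10% of neutrophils of both libraries. Of these 5, 3 were at least 2-fold higher. Ncf1 was at 3.07 and 3.52 against 0.508 and 0.741, and Cybb was at 1.82 and 3.94 against 2.22 and 3.08. Of 13 survival and stress genes 4 were seen that often, and 3 of these 4 were at least 2-fold higher. Of 6 primary granule genes 0 were seen that often, and 0 of the 6 were at least 2-fold higher in both libraries. Mpo (myeloperoxidase) and Ctsg (cathepsin G) had no UMI in either library, and Ctsc, a protease gene that many leukocytes express, was at 0.132 and 0.674 against 1.64 and 3.16.

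Marker lists of other cell types were lower than in the other cells of the library, except the basophil or mast cell list (2.17 against 1.31) and the red cell list (7.62 against 4.57) of DR_MG_2022. The 6 macrophage genes outside the rule summed to 4.99 and 6.94, against 31.8 and 32.6 in other cells. Apoe, an abundant macrophage transcript, was at 2.58 and 4.46 against 27.9 and 24.5. Monocyte genes summed to 3.27 and 3.64 against 8.63 and 11.1. Dendritic cell genes, mainly Cd74 and H2-Aa of antigen presentation, summed to 16.7 and 31.0 against 54.99 and 99.03. Their sums were 72.0 and 58.7 in neutrophils of 3000 UMIs or more, Scrublet calls included, and 7.3 and 11.0 in the rest. Natural killer cell genes summed to 16.6 and 6.12 against 47.2 and 21.1. The eosinophil genes Epx and Il5ra were at 0 in both libraries. Milk protein genes, which belong to the secretory epithelium, were seen: Csn2, the gene of beta-casein, was at 5.61 and 9.57 in neutrophils and at 6.80 and 18.7 in other cells. Both exceptions rest on few cells: 3 neutrophils of DR_MG_2022 held 3 or more basophil or mast cell UMIs, and 1 held 3 or more red cell UMIs. The basophil or mast cell list was at 4.99 in neutrophils of 3000 UMIs or more and at 0.126 in the rest.

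The granule genes divided the neutrophils. Lcn2 (lipocalin 2, which binds bacterial siderophores) and Mmp8 (a collagenase) were spread over many cells and were seen in 37.3% and 29.0% of them in DR_MG_2021. Ltf (lactoferrin), Ngp and Camp (cathelicidin), by contrast, were packed into a few cells. Among neutrophils that Scrublet did not mark, 4 of 255 in DR_MG_2021 and 7 of 225 in DR_MG_2022 gave at least 1% of their UMIs to these 3 genes, with levels from 179.6 to 1015 and from 187.5 to 1180, while no other neutrophil was above 15.3 and 16.7. These 11 cells were large, with a median of 2760 and 6007 UMIs against 818 and 1561 in the rest. They were rich in the S100 pair, which made up a median 30.8% and 33.7% of their UMIs against 9.22% and 7.57%. Il1b was at 0 in 3 of the 4 and in 7 of the 7, and at a summed level of 1.64 and 0 against 116 and 139 in the rest. In DR_MG_2022 the proliferation genes Mki67 and Top2a were at 4.85 and 4.29 in them, against 0.355 and 0.426 in neutrophils with none of the 3 transcripts among 500 UMIs. The first 2 values are sums over the 7 cells, the largest of which held 19384 UMIs. How many of the 7 held either transcript is not given. In the 4 cells of DR_MG_2021 both genes were at 0. Of the 5 of these 11 cells that carried a single tag, 2 were Balb/c, 1 Nulliparous, 1 Gestation in DR_MG_2021 and 1 on HT2 in DR_MG_2022.

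**Figure D2:**
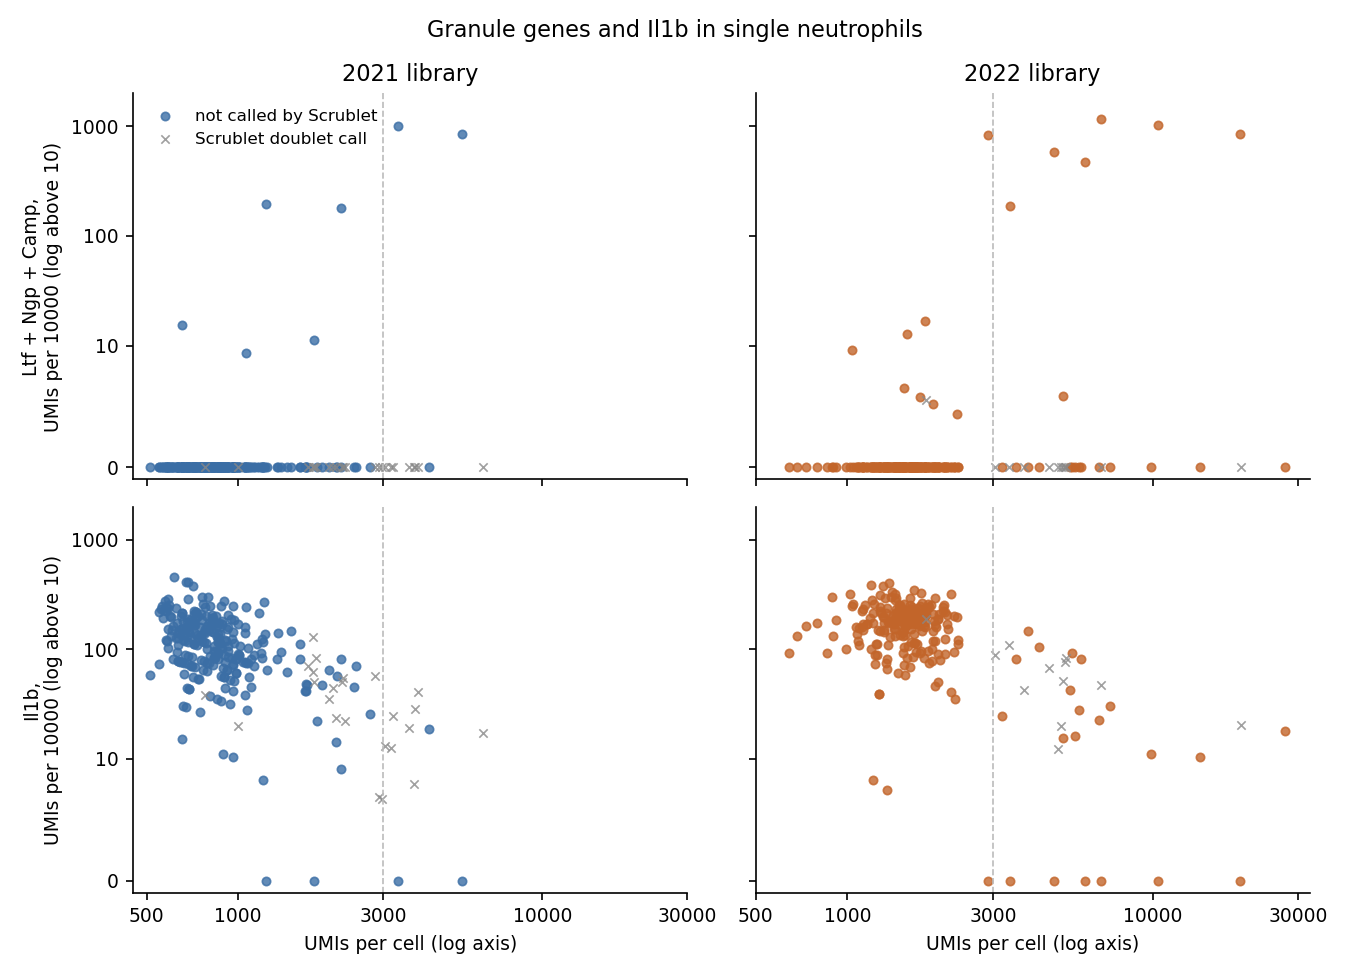
Each point is 1 neutrophil of DR_MG_2021 (left) or DR_MG_2022 (right), with its UMIs on a log axis against its Ltf, Ngp and Camp UMIs together (top) or its Il1b UMIs (bottom), per 10000 UMIs on an axis that is linear below 10 and log above, with Scrublet calls as crosses and a dashed line at 3000 UMIs. The 4 cells in DR_MG_2021 and 7 cells in DR_MG_2022 above 100 in the top panels hold almost no Il1b.

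At equal depth the share of neutrophils with any UMI of the 12 granule genes did not differ between libraries beyond counting error. Thinned to 500 UMIs, 81 of 158 neutrophils with 1 tag and no Scrublet call had one in DR_MG_2021 (51.3%, 43.2 to 59.3) and 80 of 167 in DR_MG_2022 (47.9%, 40.1 to 55.8). Neutrophils on HT2 are part of both counts. With all UMIs of each cell the shares were 65.2% and 77.2%. Ltf, Ngp or Camp was among the 500 UMIs of only 3 of the 158 and 6 of the 167, so the thinned share mostly reflects other genes of the list. In DR_MG_2021 the thinned share was 58.5% in Nulliparous (48 of 82, 47.1 to 69.3), 47.5% in Gestation (19 of 40, 31.5 to 63.9) and 40.0% in Lactation (8 of 20, 19.1 to 63.9). In DR_MG_2022 it was 57.9% in Gestation (11 of 19), 38.5% in Involution (5 of 13), 10.0% in Regression (1 of 10, 0.253 to 44.5), 49.3% in Balb/c (35 of 71) and 45.2% in GF (14 of 31). The intervals of the samples within a library overlapped, Regression with Gestation and Balb/c included.

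The share of neutrophils among tagged cells set Balb/c apart. Balb/c had 71 neutrophils among 1977 cells (3.59%, 2.82 to 4.51), above the interval of every other DR_MG_2022 sample. GF had 31 of 2126 (1.46%, 0.993 to 2.06). Involution had 13 of 2222 (0.585%, 0.312 to 0.998), Gestation 19 of 3327 (0.571%, 0.344 to 0.890), Regression 10 of 2396 (0.417%, 0.200 to 0.766) and Lactation 2 of 766 (0.261%, 0.0316 to 0.940), and the intervals of these 4 overlapped. In DR_MG_2021 Nulliparous had 82 of 5672 (1.45%, 1.15 to 1.79), Gestation 40 of 4450 (0.899%, 0.643 to 1.22) and Lactation 20 of 2323 (0.861%, 0.527 to 1.33). With a minimum of 1000 UMIs per cell the shares in DR_MG_2021 were 0.658% in Nulliparous, 0.134% in Gestation and 0.0953% in Lactation. These shares leave out Scrublet calls. A share says nothing of the number of neutrophils in a gland, since it moves with every other cell type in the suspension.

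Lactation was the sample whose share depended on how the tags were read. Neutrophils carried fewer tag counts than other cells, with a median sum of 39 against 77 in DR_MG_2021 and 30 against 36 in DR_MG_2022. The HTODemux cutoff for the Lactation tag HT6 was 23 counts in DR_MG_2021, and among the 103 neutrophils whose highest tag was HT6 the median HT6 count was 17, below that cutoff and below the 27 of other cells. Of the 82 neutrophils of DR_MG_2021 with no tag above its cutoff, 81 had HT6 as their highest tag. These 82 were 29.4% of the DR_MG_2021 neutrophils, while 12.3% of other cells had no call. When the sample was instead taken from the highest tag, if it had at least 5 counts and 3 times those of the next tag, Lactation had 78 neutrophils among 3633 cells in DR_MG_2021 (2.15%, 1.70 to 2.67), the highest share of that library, while Nulliparous was at 1.30% and Gestation at 0.941%. In DR_MG_2022 the same call left 0 of 558 Lactation cells, which by the limit of 3 counts allows a share of up to 0.538% (0.659% by the exact interval), and moved Balb/c to 3.26% and GF to 1.40%.

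**Figure D3:**
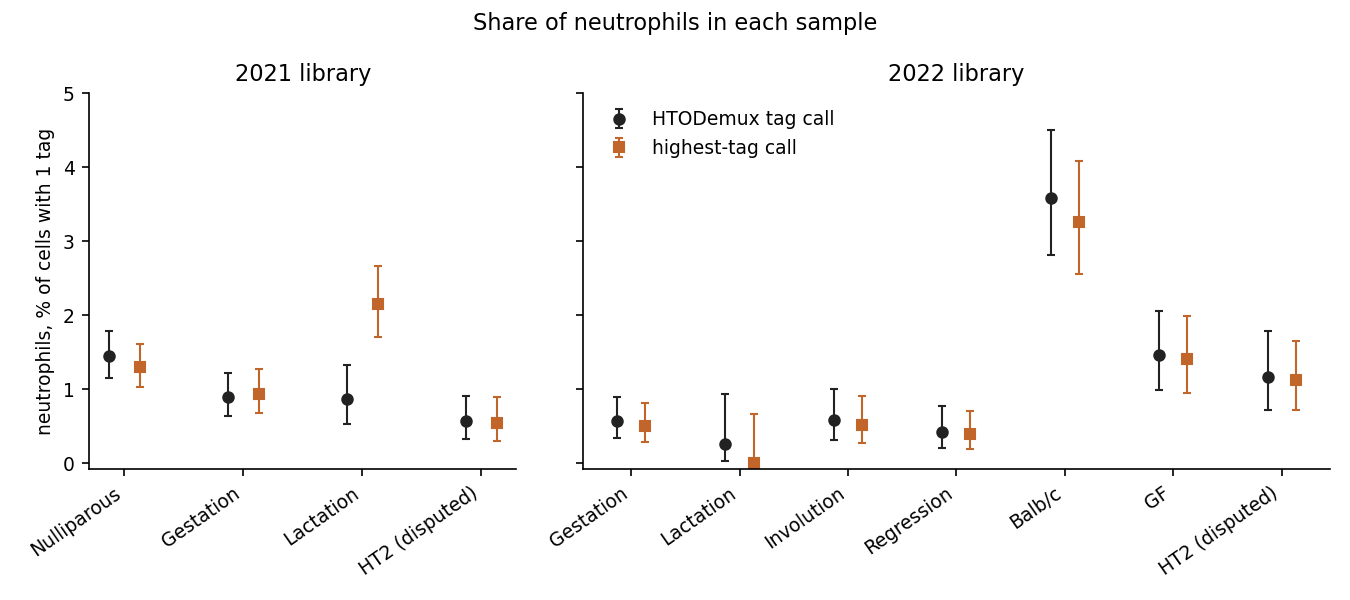
Share of neutrophils among cells with 1 hash tag in each sample of DR_MG_2021 (left) and DR_MG_2022 (right), in percent, with exact binomial 95% intervals, by HTODemux (circles) and by the highest-tag call (squares). Balb/c lies above every other DR_MG_2022 sample by both calls, and Lactation in DR_MG_2021 moves from 0.861% to 2.15%.

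Lactation against Gestation was the one pair of stages present in both libraries. The log2 ratio of the shares was -0.06 in DR_MG_2021 and -1.13 in DR_MG_2022, with a mean of -0.60 ± 0.75 (SD, n = 2 libraries; lower in Lactation in 2 of 2). The DR_MG_2022 ratio rests on 2 Lactation neutrophils, under the limit of 3 counts. The DR_MG_2021 ratio was 0.002 when HTODemux named each cell by its highest normalized tag. The exact two-sided permutation test within libraries gave p = 0.5, the smallest it can give with 2 libraries, so it could not pass 0.05. With a tag quantile of 0.95 the mean was 0.88, so the direction turned. The genes of neutrophils were not tested between these stages, because Lactation had 2 neutrophils in DR_MG_2022.

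Within a library, each sample with at least 20 neutrophils was set against the sum of the library's other named samples, for genes outside the rule with at least 50 UMIs. Lactation of DR_MG_2022, with 2 neutrophils, is part of those sums, but its own levels, like those on HT2, are left out below unless named. In DR_MG_2021, 301 genes qualified. In Nulliparous 7.64% of them were at least 2-fold higher and 4.32% at least 2-fold lower than in Gestation and Lactation together. In Gestation 2.99% were higher and 7.64% lower, and in Lactation 2.99% were higher and 9.97% lower. In DR_MG_2022, 818 genes qualified. In Balb/c 3.91% were higher and 13.6% lower, and in GF 6.72% were higher and 5.26% lower. Each sample's own genes are in the other samples' background, so the comparisons of a library mirror one another. The median neutrophil of these samples held 886 UMIs in Nulliparous, 711.5 in Gestation and 822 in Lactation, and 1465 in Balb/c and 1626 in GF.

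Nulliparous neutrophils held far more Wfdc17 and Ifitm1 than those of the other DR_MG_2021 stages. Wfdc17, which encodes a secreted protein with a whey acidic protein domain, was at 75.2 in Nulliparous (exact Poisson 95% interval 69.4 to 81.4), 2.47 in Gestation (1.07 to 4.87) and 14.4 in Lactation (9.23 to 21.4), a level 11.5-fold above that of Gestation and Lactation pooled. At 500 UMIs per cell, 64 of 82 Nulliparous neutrophils had a Wfdc17 UMI (78.0%, 67.5 to 86.4), against 4 of 40 in Gestation and 6 of 20 in Lactation, and 1.46% of B cells (median 1539 UMIs before thinning). The gap was broad across cells, as the richest cell held 4.72% of the Nulliparous Wfdc17 UMIs. In DR_MG_2022, which had no Nulliparous sample, Wfdc17 was lowest in Balb/c, at 2.60, followed by GF at 7.53, Gestation at 11.5, Involution at 11.7 and Regression at 18.1, and the 2 Lactation neutrophils held 36 UMIs, all in 1 of them. Among all other cells of DR_MG_2021 it was level, at 0.983 in Nulliparous and 0.941 in the other stages.

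Ifitm1, an interferon-induced membrane protein that restricts viruses, was at 52.6 in Nulliparous (47.7 to 57.8), 8.96 in Gestation (6.004 to 12.9) and 6.61 in Lactation (3.30 to 11.8), 6.44-fold above those stages pooled. It was seen in 63 of 82 thinned Nulliparous neutrophils (76.8%), 12 of 40 Gestation and 5 of 20 Lactation ones, and its level in B cells was 0.00573. Here the other cells of the library showed the same direction at a far lower level, with 0.242 in Nulliparous against 0.0648. In DR_MG_2022 Ifitm1 ran from 6.13 in Balb/c and 8.01 in GF to 12.2 in Regression, 15.9 in Involution and 20.1 in Gestation. Its relative Ifitm2 was at 15.4, 6.80 and 5.40 in Nulliparous, Gestation and Lactation. The interferon list as a whole did not move together in Nulliparous: of 6 genes that qualified, Ifitm1 and Ifitm2 were at least 2-fold higher and Slfn1 and Ifi27l2a at least 2-fold lower, and the list's median log2 ratio was -0.29 against -0.11 over all 301 genes.

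Lrg1, Lcn2, Acod1 and Ccl4 were also at least 2-fold higher in Nulliparous than in the other stages together. Lrg1, a secreted glycoprotein kept in granules, was at 22.1 in Nulliparous (19.0 to 25.5), 5.57 in Gestation and 3.002 in Lactation. Lcn2 was at 31.1, 13.6 and 4.20, and without the neutrophils of 3000 UMIs or more it was at 21.98 in Nulliparous. The single richest cell held 82 of the 254 Nulliparous Lcn2 UMIs. Acod1 was at 15.6, 6.49 and 6.005. Ccl4, a chemokine for monocytes and T cells, was at 18.4, 3.09 and 1.80, in 22 of 82, 3 of 40 and 2 of 20 neutrophils. Of 17 genes of mature neutrophils that qualified, Lrg1, Wfdc17, Wfdc21 and Hcar2 were at least 2-fold higher in Nulliparous and none lower, beside 7.64% and 4.32% of all 301 genes, with a median log2 ratio of 0.13. The fixed rule also named Camp and Ltf, whose 95 and 59 Nulliparous UMIs all lay in 1 cell each. Of 6 granule genes that qualified, Ltf, Ngp, Camp and Lcn2 were at least 2-fold higher in Nulliparous, with a median log2 ratio of 1.69 that was -0.14 without the neutrophils of 3000 UMIs or more. That cut left out the Nulliparous cell rich in these genes, of 3349 UMIs, but kept a Gestation cell of 2171 UMIs. The Gestation cell held 81 of the 131 granule UMIs of its sample. With the cut, the summed level of the 12 granule genes was 39.2 in Nulliparous, 40.5 in Gestation and 12.01 in Lactation.

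Genes lower in Nulliparous neutrophils were Ptgs2, Psap, Txnip, D8Ertd738e and Csn1s2a. Ptgs2 was at 6.62 (4.97 to 8.64) against 15.8 in Gestation (11.7 to 20.7) and 21.0 in Lactation (14.6 to 29.2), and in DR_MG_2022 it ran from 7.28 in Gestation to 35.7 in Regression. Cxcr4, the receptor that draws aged neutrophils back to the marrow, was chosen after its values were seen: it was at 0.858 in Nulliparous (0.345 to 1.77), 4.02 in Gestation (2.14 to 6.87) and 6.61 in Lactation (3.30 to 11.8). Csn1s2a, a milk casein, was at 4.78 against 11.6 in the other stages together, and in the other cells of the library at 2.73 against 15.3. The part of free milk RNA in that value was not tested.

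**Figure D4:**
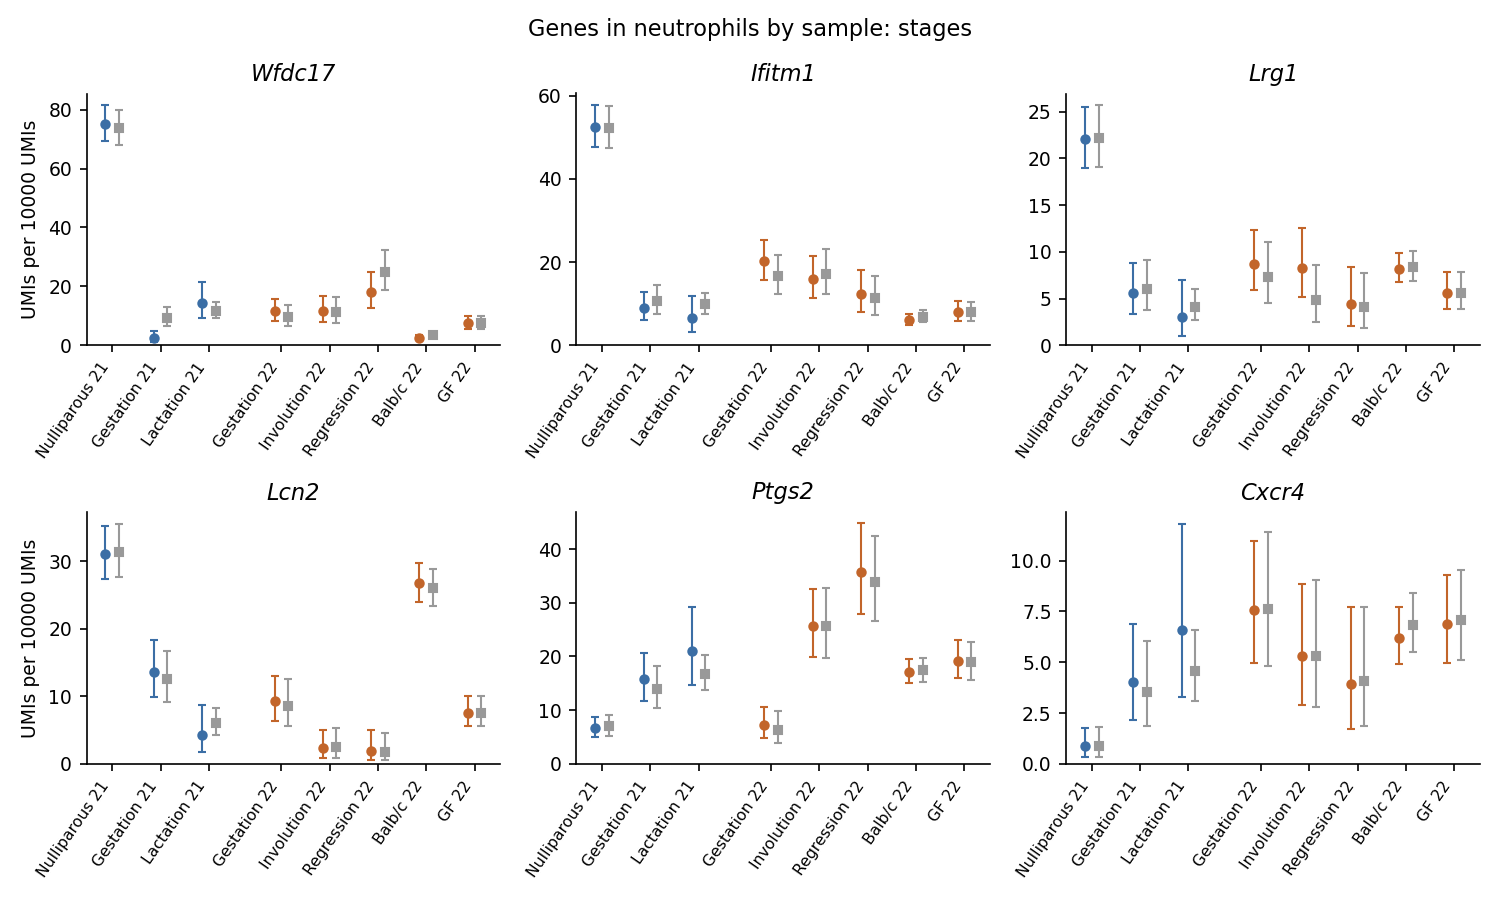
Levels of 6 genes in the neutrophils of each sample, in UMIs per 10000 with exact Poisson 95% intervals, by HTODemux (circles; DR_MG_2021 in blue, DR_MG_2022 in orange) and by the highest-tag call (grey squares). In DR_MG_2021 Nulliparous is highest for Wfdc17, Ifitm1, Lrg1 and Lcn2 and lowest for Ptgs2 and Cxcr4 by both calls.

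Nulliparous kept its place when Lactation gained neutrophils, while Wfdc17 in Gestation did not keep its level. By the highest-tag call, with 78 Lactation neutrophils, Wfdc17 was at 73.7 in Nulliparous, 9.26 in Gestation (2.47 by HTODemux) and 11.7 in Lactation, and Ifitm1 was at 52.4, 10.6 and 9.81. Lrg1 was at 22.2, 5.99 and 4.11, and Ptgs2 at 6.98, 13.9 and 16.8. Nulliparous and the other stages also differed in the genes of the rule. The 5 rule genes together were at 1813 in Nulliparous, 957 in Gestation and 1096 in Lactation, and their part in the other differences was not tested.

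Lactation neutrophils of DR_MG_2021 were otherwise marked by few genes. Rgs2, a brake on G protein signalling, was at 13.2 (8.28 to 20.0) against 4.56 in the other stages together, and at 9.81 by the highest-tag call. Ncor1 was at 8.41 against 3.25, Ube2d3 at 7.81 against 3.42, and Gm8995 at 7.81 against 3.34. None of these 4 genes was higher in the other Lactation cells of the library. In Gestation the named genes at least 2-fold higher were Csn1s2a, Slc25a3 (a mitochondrial phosphate carrier, 10.2 against 3.77), Adipor1 (an adiponectin receptor, 8.66 against 3.26), D8Ertd738e and Txnip, and 47.1% of the Gestation Csn1s2a UMIs lay in 1 cell. The genes named as lower in these 2 samples were mostly those high in Nulliparous: Wfdc17, Ccl4, Ifitm1, Camp and Ltf in Gestation, and Ccl4, Ifitm1, Lrg1, Lcn2 and Ngp in Lactation. All 6 granule genes that qualified were at least 2-fold lower in Lactation, with a median log2 ratio of -1.93, or -1.17 without the neutrophils of 3000 UMIs or more, beside 9.97% lower and a median of 0.06 over all 301 genes. The Gestation cell of 2171 UMIs that was rich in granule genes is part of both ratios. The summed level of the 12 granule genes in Lactation was 12.01 by HTODemux and 21.35 by the highest-tag call.

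Balb/c neutrophils held few transcripts of Gsr, H2-Q10 and Oasl2, which every other DR_MG_2022 sample with at least 10 neutrophils held. Gsr, the glutathione reductase that supports the oxidative burst, was at 1.38 in Balb/c (0.817 to 2.18), against 15.7 in Gestation, 15.9 in Involution, 19.6 in Regression and 15.4 in GF, a level 11.9-fold below that of the other samples pooled. At 500 UMIs per cell it was seen in 6 of 71 Balb/c neutrophils (8.45%, 3.17 to 17.5) against 19 of 31 in GF (61.3%) and 0.459% of B cells (median 2268 UMIs before thinning). H2-Q10, a class Ib histocompatibility gene, had 1 UMI in Balb/c (0.0766, 0.00194 to 0.427) and ran from 3.02 in Involution to 4.40 in Regression elsewhere in DR_MG_2022. Oasl2, of the interferon-induced 2′-5′-oligoadenylate synthetase-like family, had 2 UMIs (0.153, 0.0186 to 0.553) against 3.79 in the other samples together. None of the 3 gaps moved much without the neutrophils of 3000 UMIs or more, at log2 ratios of -3.69, -4.13 and -3.99. In the other Balb/c cells of the library the log2 ratio was -0.56 for Gsr, 0.46 for H2-Q10 and -1.68 for Oasl2. The reads were counted on mm10, the genome of a C57BL/6 mouse, and the part of Balb/c sequence differences in these counts was not tested.

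Slpi, an inhibitor of neutrophil elastase, was at 4.21 in Balb/c (3.17 to 5.48), and from 13.6 in Involution to 28.9 in Regression. Ccl4 was at 0.613 in Balb/c against 7.30 in the other samples together, where 1 cell held 34.3% of its UMIs. S100a4 had 1 UMI in Balb/c, and 76.7% of its 73 UMIs elsewhere lay in 1 cell. On the high side, G0s2, an inhibitor of lipolysis, was at 72.3 in Balb/c (67.8 to 77.1), against 15.7 in Gestation, 21.1 in Involution, 14.2 in Regression and 10.7 in GF. Sntb2, a scaffold protein of the syntrophin family, was at 3.91 (2.91 to 5.14) against 0.473, in 32 of 71 Balb/c neutrophils and 7 of 75 others. Slpi and G0s2 come from the list of mature neutrophil genes, of which 3 of 20 were at least 2-fold higher in Balb/c (G0s2, Wfdc21 and Asprv1) and 2 lower (Slpi and Wfdc17), with a median log2 ratio of 0.10 against -0.13 over all 818 genes.

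**Figure D5:**
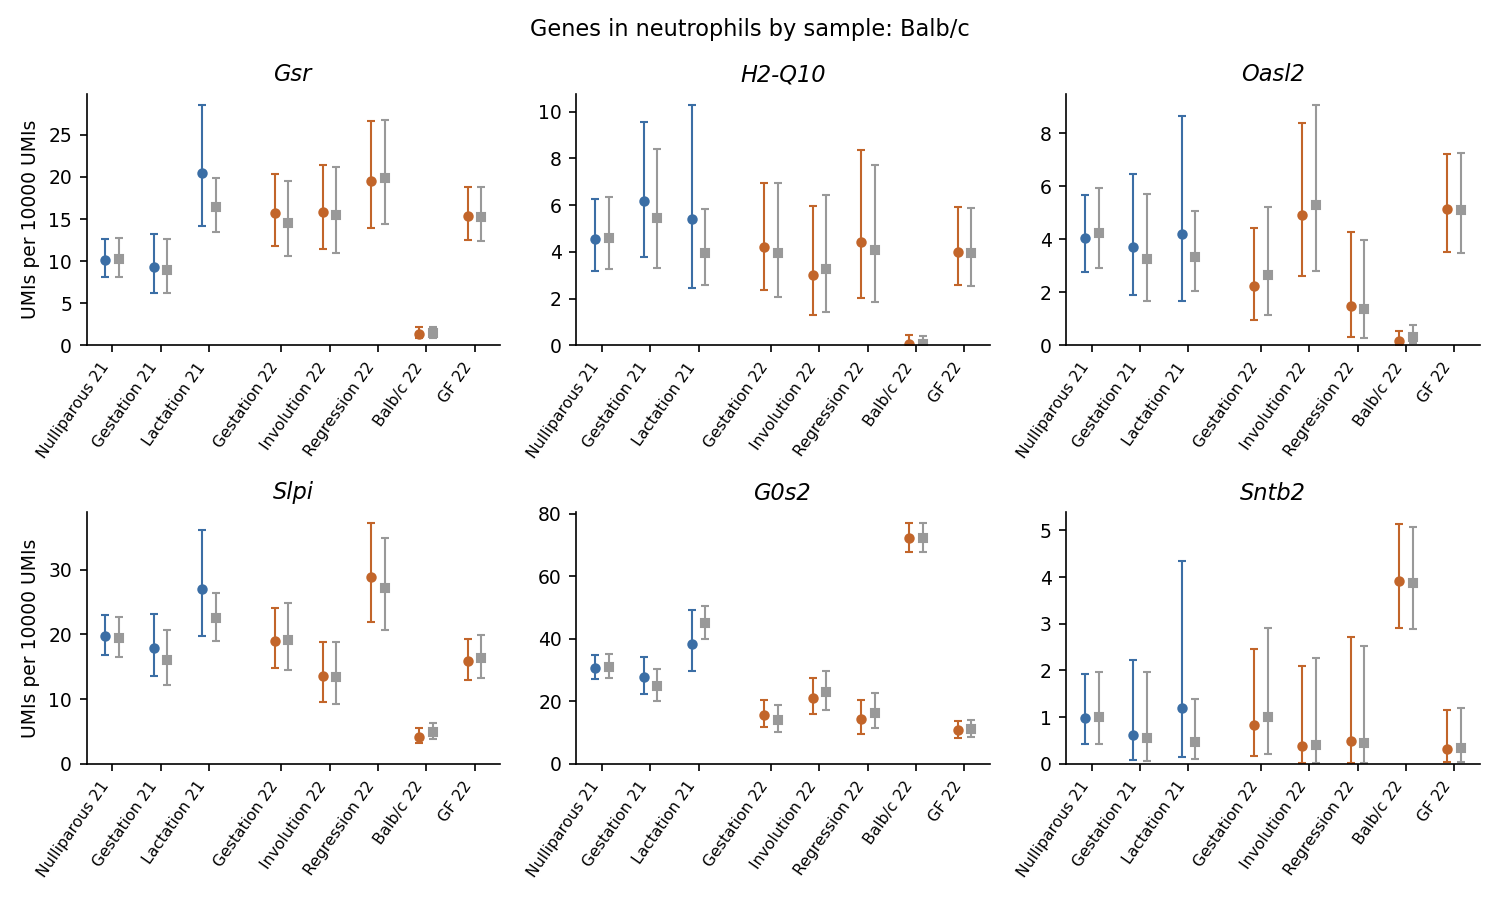
Levels of 6 genes in the neutrophils of each sample, in UMIs per 10000 with exact Poisson 95% intervals, by HTODemux (circles; DR_MG_2021 in blue, DR_MG_2022 in orange) and by the highest-tag call (grey squares). Balb/c is lowest for Gsr, H2-Q10, Oasl2 and Slpi and highest for G0s2 and Sntb2 among the samples drawn.

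The interferon list was lower in Balb/c for 3 of 8 genes that qualified (Ifitm1, Rsad2 and Ifi27l2a) and higher for 1 (Isg15), with a median log2 ratio of -0.57, beside 13.6% lower, 3.91% higher and a median of -0.13 over all 818 genes. Its summed level was 62.4 in Balb/c, 69.9 in Regression, 84.5 in Gestation, 88.0 in GF and 116 in Involution. It was lower than in Balb/c in the 2 Lactation neutrophils, at 53.9, and on HT2, at 53.75. Without the neutrophils of 3000 UMIs or more Balb/c was no longer below Regression, with 73.6 against 72.7. Gestation was then at 96.2, GF at 104 and Involution at 141. In Involution, with 13 neutrophils, Isg15 was at 7.55 (4.61 to 11.7) and Ifi27l2a at 23.8 (18.3 to 30.4). Balb/c also led in Camp, Ngp and Ltf, with a summed granule level of 242, but these UMIs lay in few cells. The 1215 Camp UMIs came from 2 of 71 neutrophils, and without the 3 Balb/c neutrophils of 3000 UMIs or more the granule level was 17.7, where GF was at 18.7 and Gestation at 26.9 by the same measure. Cd177, a surface protein of a subset of neutrophils, was at 3.52 in 11 cells, 1 of which held 47.8% of it.

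Most of what set GF neutrophils apart lay in single cells. Retnla, S100a10, Crip1, S100a4 and H2-Ab1 were the 5 highest genes by ratio, and a single cell held 95.8%, 95.7%, 91.3%, 94.9% and 80.2% of their GF UMIs. Without the neutrophils of 3000 UMIs or more the log2 ratio of Retnla went from 4.73 to 0.26, and 1.62% of 618 genes were at least 2-fold higher. The dendritic marker genes moved with it. They were at 39.9 in GF, against 9.04 to 12.8 in the other named DR_MG_2022 samples except Lactation. Without those cells they were at 11.9 in GF, against 7.29 to 13.3 in the same samples. The monocyte genes were at 8.49 in GF and at 0.456 without those cells. Among the genes lower in GF, Camp and Ltf had 0 UMIs and Ngp had 1, Gzma was at 0.481 against 2.96 with 71.9% of the latter in 1 cell, and Adam17, the protease that sheds L-selectin and tumor necrosis factor, had 1 UMI (0.160, 0.00406 to 0.892). It was at 3.52 in Balb/c (2.58 to 4.70), in 32 of 71 neutrophils, and at 1.40 in Gestation, 1.13 in Involution and 0.978 in Regression. Ifi27l2a, an interferon-induced gene, was at 27.6 in GF (23.6 to 32.0) against 9.57 in Balb/c, 12.6 in Gestation and 23.8 in Involution.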

How the data were processed

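The 2 pooled droplet libraries, each with a gene and a hash tag matrix, were made with the 10x Genomics 3' v3.1 chemistry, per the labels' protocols. The deposited gene and tag matrices hold raw UMI counts per barcode. The submitters' processing notes name Cell Ranger 6.1.0 and mm10, while the DR_MG_2021 gene matrix names Cell Ranger 4, per the file headers. That matrix lists 1347735 barcodes. The deposited DR_MG_2022 matrix lists 21632, each with at least 500 UMIs, so its filter cannot be relaxed. Total counts were 56300251 UMIs in DR_MG_2021 and 90642638 in DR_MG_2022, and 50906081 and 90109576 lay in the cells kept. Libraries were matched on 55253 symbols.

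Cells had at least 500 UMIs, 300 genes and at most 10% mitochondrial UMIs. Of the barcodes kept, 139 occur in both libraries. HTODemux called the tags (quantile 0.99; Seurat 5.3.0 in R 4.3.3), a cell taking the name of its 1 tag above the cutoff. Values by sample, and those of the cells rich in granule genes, leave out Scrublet calls (scanpy 1.11.5, Python 3.11.15); levels of a whole library keep them. Tag HT4 had 1 count in DR_MG_2022. Levels are summed UMIs per 10000. Ratios replace sums under 3 UMIs by 3. Intervals are exact binomial (Clopper-Pearson) or Poisson at 95% (scipy 1.17.1). B cells for comparison held at least 2 Cd79a or Ms4a1 UMIs and fewer than 10 UMIs of the S100 pair.

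The members and gene lists were chosen with earlier results of these data known. Named genes are the 25 largest ratios to other cells, and for samples with at least 20 neutrophils up to 5 genes in each direction, at least 2-fold, among genes with at least 50 UMIs. Lists were neutrophil functions and markers of 12 other cell classes. Alternatives were other filters, tag calls, doublet handling, thinning and leaving out neutrophils of 3000 UMIs or more.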

Additional observations from a re-analysis of the deposited data

Results flagged for a closer look

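In the library DR_MG_2021, 21 barcodes of 250 to under 500 UMIs met the marker rule, of 1091 such barcodes with at least 150 genes (1.93%, 1.20 to 2.93), and were outside the cells kept. HT2, whose name is disputed, held 16 neutrophils in DR_MG_2021 (0.563% of its cells) and 21 in DR_MG_2022 (1.17%). They were left out of the gene comparisons between samples, apart from the interferon sum set beside Balb/c. They are part of the values of a whole library, of the 158 and 167 neutrophils with 1 tag, and of the 99 alternatives of the shares.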

How the results depend on the processing

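The count of 516 neutrophils was 305 with at least 1000 UMIs per cell. With an S100 minimum of 5 or 20, at most 5% mitochondrial UMIs or a lower depth filter in DR_MG_2021 it ran from 481 to 570. The mean log2 ratio of the shares, Lactation over Gestation, was -0.60. It turned to 0.88 at a tag quantile of 0.95 and to 0.82 with the highest tag and no minimum, and the cause was not tested. Leaving out a library gave -1.13 to -0.06. The fit with the library as a replicate block was the main one, and without the block the value was -0.09. The highest-tag call with a minimum gave no ratio, since Lactation had 0 neutrophils in DR_MG_2022. The share with a granule UMI, 51.3% and 47.9%, was 65.2% and 77.2% with all UMIs of each cell. The shares by sample stayed within their intervals in 90 of 99 alternatives. Without neutrophils of 3000 UMIs or more, Balb/c had 25 genes higher and 36 lower in place of 32 and 111, and GF 10 and 24 in place of 55 and 43. The genes compared went from 818 to 618, so that the shares were 4.05% and 5.83% in place of 3.91% and 13.6% in Balb/c, and 1.62% and 3.88% in place of 6.72% and 5.26% in GF. By the highest-tag call, Lactation had 9 higher and 16 lower in place of 9 and 30, and Nulliparous 20 and 23 in place of 23 and 13. Here the genes compared went from 301 to 417, and the shares were 2.16% and 3.84% in place of 2.99% and 9.97% in Lactation, and 4.8% and 5.52% in place of 7.64% and 4.32% in Nulliparous. The test of genes between Lactation and Gestation, and all its alternatives, were not run. These added settings (3000 UMIs, no minimum, tag calls for levels) were chosen after seeing the data. Depth limits single genes: at 50 UMIs over a library, samples of 20 neutrophils hold few UMIs each.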
